A study of Mus musculus with 20 samples.

Results

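The cytosolic ribosomal protein genes encode the proteins of the 2 subunits of the ribosome that translates messenger RNA made in the nucleus. They were chosen by name, as all symbols that follow the Rpl, Rps or Rplp pattern, which gave 88 of the 55367 genes listed. Of these, 46 encode proteins of the large subunit and 30 proteins of the small subunit. Another 6 are protein-coding paralogues (Rpl3l, Rpl7l1, Rpl10l, Rpl22l1, Rpl39l and Rps27l), and 6 are processed pseudogenes in the GENCODE annotation, called retrocopies here (Rps4l, Rps12l1, Rpl32l, Rpl6l, Rps3a2 and Rps3a3). After the filter on low counts, 85 members were tested; Rpl10l had 0 counts in every library, and Rps12l1 and Rpl32l also fell below the filter. The 76 subunit genes lie on 19 chromosomes and all were tested.

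The RNA came from C57BL/6J mouse pups, with no transgene or other allele named, whose left atria and left ventricles were taken on postnatal day 4, after 100% oxygen (hyperoxia) from birth or after room air at 21% oxygen. Nursing dams moved between both atmospheres every 24 hours. The 4 groups, room-air atrium, hyperoxic atrium, room-air ventricle and hyperoxic ventricle, each had 5 libraries, numbered by individual mouse within a group, and the labels do not give the sex of the pups or say whether a number is the same mouse in both chambers. The labels thus give separate animals within a group, and the question named by the study's title is how the responses of atrium and ventricle to hyperoxia differ.

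Each ribosome holds 1 copy of nearly every ribosomal protein, with the acidic stalk proteins Rplp1 and Rplp2 as the known exception, and cells make these proteins in matched amounts. Most of their messenger RNAs begin with a terminal oligopyrimidine (TOP) tract, a C followed by a run of C and T bases at the start of the transcript, through which mTOR signalling and the RNA-binding protein Larp1 adjust their translation. In the heart, Rpl3l is a striated-muscle paralogue of Rpl3, and demand for ribosomes is high in the neonatal period, when cardiomyocytes leave the cell cycle and begin to enlarge.

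The windows below run from 10 bases before to 20 bases after the annotated transcription start (RefSeq, GRCm38.p6) and are shown because the tract at the start is what sets TOP genes apart. The first 6 belong to 5 subunit genes described below, with 2 of the 3 starts of Rps19, and the last 4 to paralogues; capitals mark runs of a C followed by at least 5 pyrimidines, whether whole or cut by the end of the window.
Rpl38 (chr11:114668570-114668599, plus strand): aagcctcgttCTTTCCCCgttCTCTTCggt
Rps19 (chr7:24884582-24884611, plus strand, the first of 3 starts): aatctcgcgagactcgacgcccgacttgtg
Rps19 (chr7:24884903-24884932, plus strand, the third of 3 starts): agcggggtgtggagggCTCTCCCacgcggt
Rps6 (chr4:86857348-86857377, minus strand): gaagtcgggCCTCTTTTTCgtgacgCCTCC
Rpl15 (chr14:18270967-18270996, minus strand): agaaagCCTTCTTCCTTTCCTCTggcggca
Rps27 (chr3:90213629-90213658, minus strand): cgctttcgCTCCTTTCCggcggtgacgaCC
Rps27l (chr9:66946076-66946105, plus strand, the first of 2 starts): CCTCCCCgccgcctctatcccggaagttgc
Rpl22l1 (chr3:28805498-28805527, plus strand): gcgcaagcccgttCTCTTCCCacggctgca
Rpl3l (chr17:24727816-24727845, plus strand, the first of 2 starts): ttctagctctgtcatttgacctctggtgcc
Rpl7l1 (chr17:46782637-46782666, minus strand): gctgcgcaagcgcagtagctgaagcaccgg

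Promoter entries were found for 63 members. A run of a C and at least 5 pyrimidines on the coding strand, within 20 bases before to 30 bases after a start, was present at 49 of 66 starts of 56 subunit genes (74.2%), against 37.1% of 32851 starts in the table. At the paralogues, 3 of 8 starts had one. The 7 letters CCGGAAG, searched on both strands of the 300 bases around each start, were in 36.4% of the subunit genes' promoters and 8.86% of all, and TATAAA, searched the same way, was in 9.09% and 13.6%. A run counted this way could lie before the start, as the one shown for Rps27l does, or further inside the transcript. The share of starts with a run is therefore not a share with a TOP tract. All of these are letter matches, not measured binding or translation.

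The summed ribosomal protein counts gave the first view of the groups. In the room-air atrium the 88 genes took 2.90%, 2.60%, 2.44%, 3.01% and 2.41% of all counts in libraries 1 to 5, a mean of 2.67% ± 0.270 (SD, n = 5). In the hyperoxic atrium they took 3.39%, 6.08%, 3.55%, 5.81% and 3.36%, a mean of 4.44% ± 1.38 (SD, n = 5). Every hyperoxic atrial library was above every room-air atrial library. In the room-air ventricle the share was 3.53%, 3.45%, 3.06%, 4.92% and 2.96% (3.59% ± 0.786, SD, n = 5), and in the hyperoxic ventricle it was 2.87%, 2.60%, 2.60%, 2.47% and 2.86% in libraries 1, 2, 4, 5 and 6 (2.68% ± 0.176, SD, n = 5). Here every hyperoxic library was below every room-air library, so the summed share lay higher after hyperoxia in the atrium and lower in the ventricle. In bulk tissue, fewer cells of a type and less RNA per cell cannot be told apart.

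**Figure D1:**
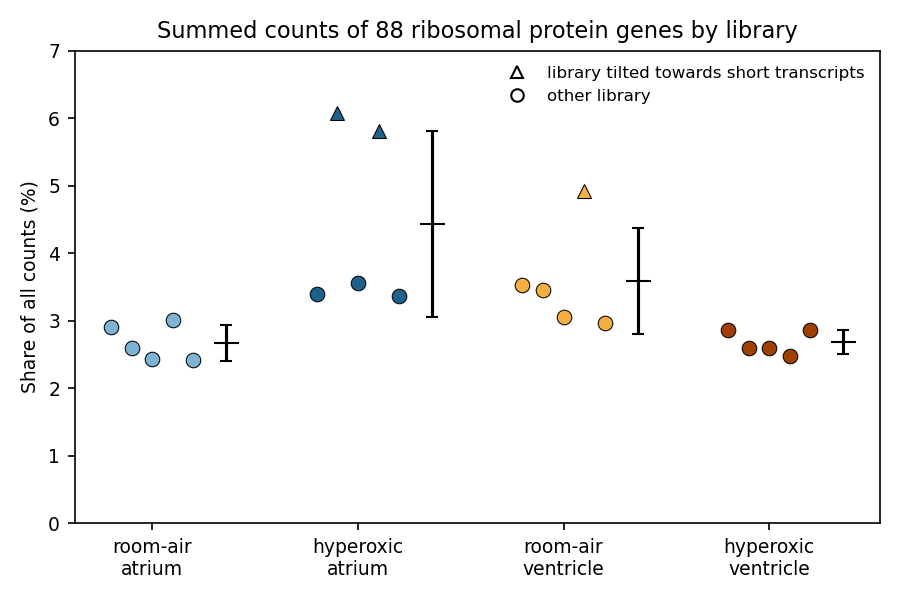
Share of all counts taken by the 88 ribosomal protein genes (%, linear axis from 0) in each library of the 4 groups, with the mean and SD of 5 libraries. Triangles are the 3 libraries tilted towards short transcripts; the hyperoxic atrial libraries lie above the room-air ones with or without them, and the hyperoxic ventricular libraries lie below.

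Libraries also differed in how strongly they favoured short transcripts, which touches every result on these genes because they are short. The 76 subunit genes have a median transcript length of 772.5 bases, against 2556 bases for the 16301 tested genes with a length, and 78.95% of them are under 1 kb, against 11.69% of those genes. The length bias of a library was taken as the slope of the log2 counts-per-million value (CPM) on log2 transcript length. Each gene's value was taken relative to its mean over the libraries of the same chamber, so slopes compare libraries within a chamber. The slope used 11049 genes, with the ribosomal protein genes left out. Room-air ventricle 4 had a slope of -0.254 and hyperoxic atria 2 and 4 had -0.335 and -0.336. For the other 17 libraries it ran from -0.088 to 0.152. The 3 libraries with the lowest slopes, called tilted here, were those with the 3 highest ribosomal protein shares. Without them, the share was 3.44% ± 0.102 (SD, n = 3) in the hyperoxic atrium and 3.25% ± 0.284 (SD, n = 4) in the room-air ventricle, and neither chamber's groups overlapped. The remaining room-air ventricles still had lower slopes, from -0.088 to 0.029, than the hyperoxic ventricles, from 0.04 to 0.109. The counts of members called below are therefore given from all libraries, without the 3 tilted ones, and with the slope as a covariate.

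**Figure D2:**
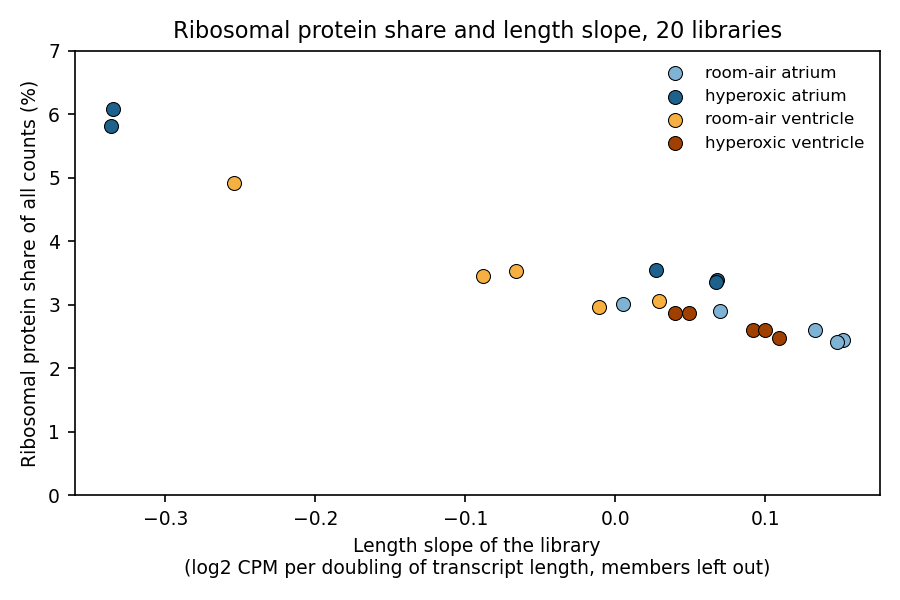
Ribosomal protein share of all counts (%) against the length slope of the library within its chamber, for 20 libraries coloured by group. The 3 libraries with slopes of -0.254 and below have the highest shares, 4.92% to 6.08%, and the hyperoxic atria at slopes of 0.027 to 0.068 lie above the room-air atria at 0.005 to 0.152.

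Total counts ran from 26510081 to 38244117 per library. Atrial markers summed to 17750 to 22900 CPM in room-air atria and 25950 to 50100 in hyperoxic atria, and to 1015 to 1924 in room-air and 216 to 838 in hyperoxic ventricles. In hyperoxic against room-air atria, macrophage markers (7 genes) summed to 211 to 377 against 163 to 175 CPM and fibroblast markers (6 genes) to 2773 to 3995 against 5458 to 6527 CPM. Endothelial markers (6 genes) were lower without overlap in both chambers, at 613.5 to 819 against 971 to 1152 CPM in the atria and 1320 to 1529 against 1593 to 1876 CPM in the ventricles. In hyperoxic against room-air ventricles, erythroid markers (6 genes) summed to 906 to 1270 against 1808 to 2858 CPM. None of the listed markers was at 0 throughout a group, and the part of other cell types in the ribosomal protein results was not tested. The share of 4 Y-linked genes (Ddx3y, Kdm5d, Eif2s3y and Uty) in their counts plus those of Xist was at least 0.9946 in all 10 room-air libraries, and in the 10 hyperoxic ones it was at most 0.00655 in 7 and at least 0.905 in 3, so oxygen and this sign of sex were largely confounded. The hyperoxic ventricles with a high Y-linked share, libraries 2 and 6, had ribosomal protein shares of 2.60% and 2.86%, below every room-air ventricle; the atrium had only 1 such hyperoxic library, and it was tilted.

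Tested gene by gene with edgeR's quasi-likelihood test, and counted where the Benjamini-Hochberg adjusted p over all genes was under 0.05, most members rose in the hyperoxic atrium. With all libraries, 78 of 85 were higher and 0 lower (0 lower also with DESeq2, and 1 lower at an unadjusted p under 0.05), beside 19.7% of the 16598 genes tested called higher and 24.2% called lower. The median log2 difference of the 85 was 0.82, against -0.06 over all genes. Without the 3 tilted libraries 60 were higher and 2 lower (17.1% and 21.9% of all genes), with a median of 0.33, and with the slope as a covariate 46 were higher and 3 lower (17.5% and 22.4%), with a median of 0.20. For 60 members every hyperoxic atrium lay above every room-air atrium, beside 13.6% of all genes. The rise was shared by both subunits: 45 of 46 large-subunit genes and 29 of 30 small-subunit genes were called, with medians of 0.82 and 0.83. Rpl24 and Rps10 were the subunit genes not called; with 246 and 1059 counts over all 20 libraries they were far below their partners, as to a lesser degree was Rpl13a with 16970, and how reads that match several copies were counted is not given in the sources used here, so their values are uncertain.

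Rps19, a small-subunit protein known as the gene most often mutated in Diamond-Blackfan anaemia, had 223, 199, 185, 243 and 183 CPM in room-air atria 1 to 5 and 300.3, 660.3, 326.7, 598.8 and 278.6 CPM in hyperoxic atria 1 to 5. All 5 hyperoxic values were above all 5 room-air values, and the tilted atria 2 and 4 were the highest. The log2 difference was 1.07 (SE 0.21, adjusted p 0.000264), 0.55 (SE 0.12, adjusted p 0.000477) without the tilted libraries and 0.41 (SE 0.07, adjusted p 4.8e-05) with the slope as a covariate. Among subunit genes the rise with all libraries was largest in Rpl38 and Rpl36, both short large-subunit genes, with log2 differences of 1.20 (SE 0.27) and 1.14 (SE 0.27). Rpl38 had 109.6, 89.7, 84.5, 117.7 and 88.1 CPM in room-air atria and 127.9, 363.6, 145.6, 353.2 and 135.1 CPM in hyperoxic atria. Here too the groups did not overlap, but the untilted hyperoxic atria were close above the room-air ones, and the difference without the tilted libraries was 0.48 (SE 0.12, adjusted p 0.00241). Rpl10a and Rpl15 were among the subunit genes with the smallest rises, 0.43 (SE 0.14) and 0.49 (SE 0.12); without the tilted libraries Rpl10a, at 0.14 (adjusted p 0.309), was not called.

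Partners of the paralogues moved with the family: Rpl3, Rpl7, Rpl10, Rpl22, Rpl39, Rps4x and Rps27 were all called higher in the hyperoxic atrium with all libraries, by 0.47 (Rpl7, SE 0.16) to 0.95 (Rpl39, SE 0.23). Of these, Rpl7, Rps4x and Rps27 were not called without the tilted libraries. Rps27a, which is made as a fusion with ubiquitin, rose by 0.91 (SE 0.21, adjusted p 0.00124), and by 0.43 (SE 0.10, adjusted p 0.00145) without them.

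The stalk of the large subunit, which recruits translation factors, is built from Rplp0, Rplp1 and Rplp2. Rplp0 had 937, 862, 835, 980.3 and 875 CPM in room-air atria and 1072, 1440, 1142, 1603 and 1076 CPM in hyperoxic atria, with no overlap and a log2 difference of 0.50 (SE 0.12, adjusted p 0.00139). It stayed called without the tilted libraries, at 0.29 (SE 0.09, adjusted p 0.0109). Rplp1 rose by 0.84 (SE 0.22), or 0.31 (SE 0.11, adjusted p 0.0358) without them. Rplp2, at 0.85 (SE 0.28, adjusted p 0.0179) with all libraries, was 0.11 (SE 0.12, adjusted p 0.502) without them and -0.08 (adjusted p 0.55) with the slope as a covariate, and was called with all libraries only among these 3 fits. Rps6, the substrate of S6 kinase, rose by 0.78 (SE 0.16) and Rpl5 and Rpl11, which bind Mdm2 when ribosome assembly is disturbed, by 0.82 (SE 0.17) and 0.79 (SE 0.20). Rpl5 and Rpl11 were still called without the tilted libraries, at 0.42 (SE 0.09, adjusted p 0.00105) and 0.33 (SE 0.11, adjusted p 0.0162).

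**Figure D3:**
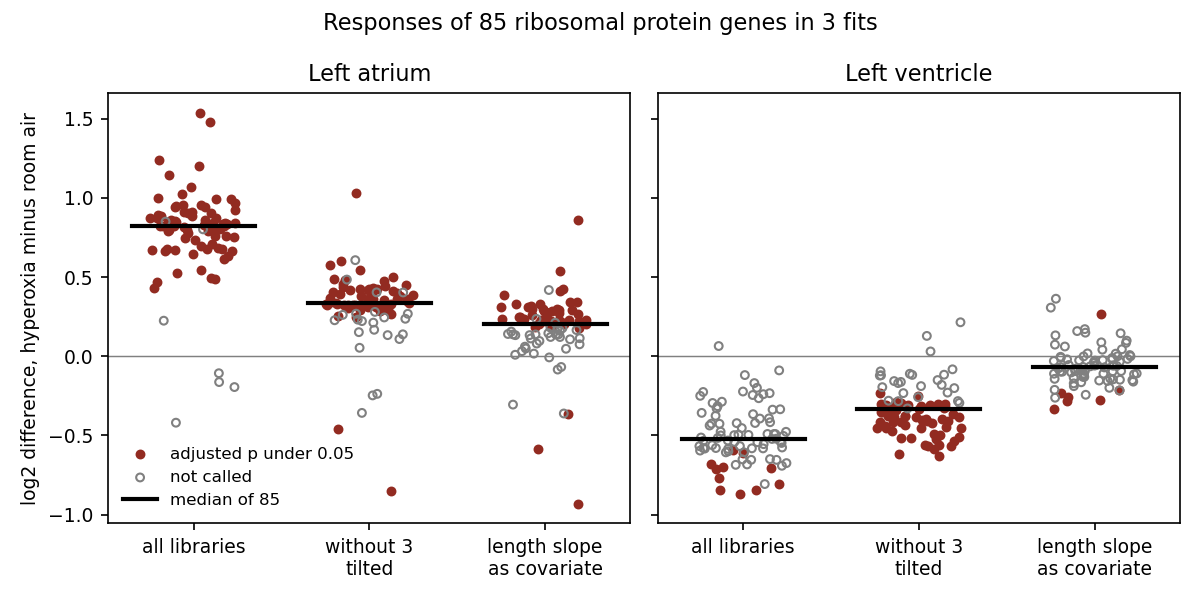
Log2 difference, hyperoxia minus room air, of the 85 tested ribosomal protein genes in each chamber, from all libraries, without the 3 tilted libraries, and with the length slope as a covariate; filled points have an adjusted p under 0.05 and bars are medians. The atrial median goes from 0.82 to 0.33 and 0.20, and the ventricular one from -0.52 to -0.33 and -0.07.

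In the ventricle most members lay lower after hyperoxia, but the number called depended on the fit. With all libraries, 11 of 85 were lower and 0 higher (0 higher also with DESeq2 and at an unadjusted p under 0.05), beside 5.28% of all genes called lower and 5.64% called higher, and 63 were lower at an unadjusted p under 0.05. The 11 were 5 large-subunit genes, 4 small-subunit genes, the paralogue Rpl22l1 and the retrocopy Rps4l. The median log2 difference was -0.52, against -0.01 over all genes, and for 37 members every hyperoxic ventricle lay below every room-air ventricle, beside 5.93% of all genes. Without the tilted libraries 59 were lower (9.13% of all genes), with a median of -0.33. With the slope as a covariate 6 were lower and 1, Rpl5, was higher (6.09% and 6.43%), with a median of -0.07, and with the slope as a covariate and no tilted library 0 were lower (1.18%), 6 at an unadjusted p under 0.05. With the Y-linked share as a covariate 0 were called lower (0.59% of all genes; also 0 at an unadjusted p under 0.05), though 82 lay below 0 with a median of -0.28. In the atrium that fit called 78 higher (17.3%), with a median of 1.11. Its Y-linked coefficient was shared by both chambers, and the only hyperoxic atrium with a high Y-linked share was the tilted atrium 2. The median difference between the responses of the chambers was 1.395 in that fit and 1.357 without the covariate. Leaving out 1 library at a time gave 0 to 36 lower. The count was 0 without hyperoxic ventricle 4, hyperoxic ventricle 5 or room-air ventricle 4 and 36 without hyperoxic atrium 2, which enters only through the shared estimate of the spread. Without hyperoxic atrium 3 it was 11, and each of the other 19 libraries moved it by more than 1.5 times.

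Rpl38 showed the largest ventricular fall, with 220.8, 251.5, 178.6, 396.3 and 177.5 CPM in room-air ventricles 1 to 5 and 138.0, 132.3, 138.9, 110.7 and 149.9 CPM in hyperoxic ventricles 1, 2, 4, 5 and 6. The groups did not overlap, and the tilted room-air ventricle 4 was the highest. Its log2 difference was -0.87 (SE 0.27, adjusted p 0.0405), -0.63 (SE 0.11, adjusted p 0.000627) without the tilted libraries and -0.23 (SE 0.07, adjusted p 0.0224) with the slope as a covariate. Rpl36 and Rps21, both at -0.84 (SE 0.27, adjusted p 0.0455), were called with all libraries and not with the covariate. The smallest differences among subunit genes were those of Rpl5, -0.09 (SE 0.17), Rps3, -0.12 (SE 0.14), Rpl4, -0.20 (SE 0.13), and Rplp0, -0.22 (SE 0.11), none of them called.

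The responses of the 2 chambers differed for 79 of 85 members, all higher in the atrium than in the ventricle (17% of all genes called in that direction), by a median of 1.36 on the log2 scale, against -0.06 over all genes. The difference was called for 74 members without the tilted libraries (11% of all genes), by a median of 0.69. With the slope as a covariate it was called for 26 in that direction (6.65%) and 1 in the other (9.21%), by a median of 0.27, and with the covariate and no tilted library for 5, all higher in the atrium (2.91%), by a median of 0.24. Rps19 differed between chambers by 1.61 (SE 0.29, adjusted p 0.000323), by 0.96 (SE 0.16) without the tilted libraries and by 0.51 (SE 0.11, adjusted p 0.00194) with the covariate. Rpl38 differed by 2.07 (SE 0.38, adjusted p 0.000357), by 1.10 (SE 0.16) and by 0.52 (SE 0.11, adjusted p 0.00118) in the same 3 fits.

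Size of response followed length within the family as well. Across the 76 subunit genes, which share libraries and are not independent, Spearman's rho between transcript length and log2 difference was -0.403 in the atrium and 0.567 in the ventricle. The 10 shortest and 10 longest had median differences of 0.89 and 0.705 in the atrium and -0.689 and -0.300 in the ventricle. The 10 longest by median transcript include Rps15a (5130 bases) and Rps20 (3706 bases). Their differences were 0.86 and 0.74 in the atrium and -0.52 and -0.70 in the ventricle. With the tilted libraries left out the atrial rho was 0.0367 and the ventricular one 0.585. With the slope as a covariate they were 0.192 and 0.473, so a length gradient within the family remained in the ventricle. The 71 tested subunit genes of the shortest 20% of all genes (57 to 1385 bases) had medians of 0.83 and -0.53, and the 3245 other genes of that length class had medians of 0.21 and -0.29. Without the tilted libraries the values were 0.33 against -0.05 in the atrium and -0.36 against -0.20 in the ventricle, and with the covariate 0.20 against -0.11 and -0.08 against -0.04. In the atrium the family thus lay above other genes of like length in each of these 3 fits, and in the ventricle the distance shrank to a few hundredths with the covariate.

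**Figure D4:**
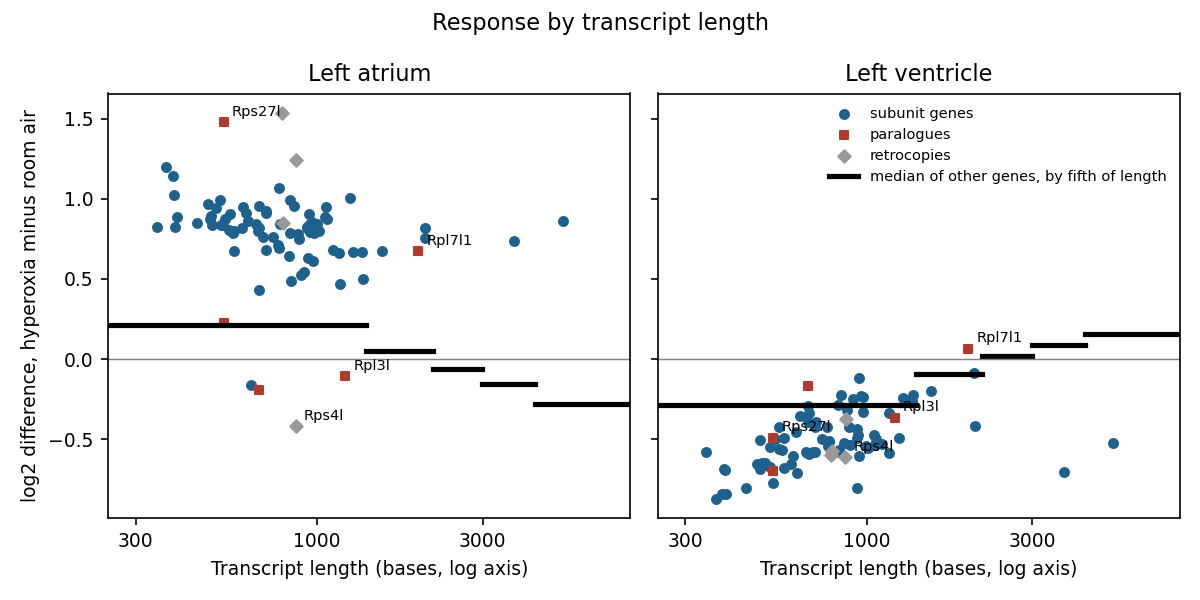
Log2 difference, hyperoxia minus room air, of each tested member against its transcript length (bases, log axis), in the left atrium and left ventricle, with all libraries; black bars are medians of all other genes in each of 5 length classes. In the atrium the subunit genes lie above the bar of the shortest class (0.21), with Rps27l higher and Rpl3l and Rps4l below 0; in the ventricle most lie below its bar (-0.29).

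Between chambers in room air, most members were lower in the atrium. With all libraries 74 of 85 were lower (26.3% of all genes) and 0 higher (28.7%), also 0 higher with DESeq2. The median log2 difference was -0.74. For 71 members every room-air atrium lay below every room-air ventricle, beside 21.4% of all genes. Once the tilted libraries were left out 78 were lower (27.1%), with a median of -0.58, and with the covariate 49 (24.4%), with a median of -0.22; with both, 26 were lower (16.1%). After hyperoxia 69 were higher in the atrium and 2, Rpl3l and Rps4l, lower (25.2% and 23.6% of all genes), with a median of 0.57. Leaving out the tilted libraries, 13 were higher (25.5%) and 2 lower (25.6%), with a median of 0.09, and with the covariate 11 were higher (26.4%) and 4 lower (27.4%), with a median of 0.02, so the number called rested on few libraries. Leaving out 1 library gave 31 higher without hyperoxic atrium 2, 33 without hyperoxic atrium 4 and 35 without hyperoxic ventricle 5. The slope is relative to each chamber's own mean, so the covariate does not take up a length bias that differs between the chambers. The room-air and hyperoxic comparisons of chambers share their libraries with the comparisons of oxygen given above.

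The balance of the subunits differed little in size between groups, though some groups did not overlap. The summed counts of small-subunit genes were 0.725 ± 0.00681 (SD, n = 5) times those of large-subunit genes in room-air atria, 0.738 ± 0.0256 in hyperoxic atria, 0.763 ± 0.011 in room-air ventricles and 0.738 ± 0.0113 in hyperoxic ventricles. Room-air ventricles, at 0.754 to 0.780, lay above all hyperoxic ventricles, at 0.721 to 0.752, and all room-air atria, at 0.718 to 0.733. Hyperoxic atria ran from 0.718 to 0.767. The 3 tilted libraries had ratios of 0.764 to 0.780, and the other 17 had 0.718 to 0.768. Per kilobase of transcript, averaged over all libraries, Rplp1 (1894 CPM per kb), Rps24 (1858) and Rps29 (1810) were the most abundant subunit genes, and the median of the 76 was 498.6 CPM per kb.

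The paralogues did not all follow the subunit genes. Rpl3l was mainly a ventricular transcript here, with 12.7, 14.4, 12.5, 23.3 and 12.7 CPM in room-air ventricles and 11.14, 11.03, 12.9, 11.8 and 11.7 CPM in hyperoxic ones. In room-air atria it had 2.98, 2.83, 3.18, 2.82 and 3.41 CPM, and in hyperoxic atria 1.99, 3.71, 2.53, 3.83 and 2.11 CPM, where the 2 high values are the tilted libraries. All atrial values were below all ventricular values, 4.96-fold in room air (log2 -2.31, SE 0.19, adjusted p 9.55e-10) and 4.15-fold after hyperoxia (log2 -2.05, SE 0.19, adjusted p 6.94e-09). In the atrium the difference after hyperoxia was -0.11 with all libraries (SE 0.19, adjusted p 0.68, not called), and Rpl3l fell by 0.46 on the log2 scale (SE 0.13, adjusted p 0.00796) without the tilted ones and by 0.59 (SE 0.15, adjusted p 0.00326) with the covariate.

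A ratio of 2 genes within a library does not depend on how the library is scaled. It can still depend on the length bias where the 2 transcripts differ in length. Transcripts have 1204 and 1351 bases for Rpl3l and Rpl3, 538.5 and 2048 for Rpl22l1 and Rpl22, and 537 and 345 for Rps27l and Rps27. The ratios were not fitted with the slope. Rpl3l was 0.603% ± 0.0861 (SD, n = 5) of the summed Rpl3l and Rpl3 counts in room-air atria, 0.350% ± 0.018 in hyperoxic atria, 2.23% ± 0.316 in room-air ventricles and 2.10% ± 0.086 in hyperoxic ventricles. The log2 ratio of Rpl3l to Rpl3 differed by -0.78 between hyperoxic and room-air atria, with no overlap (exact two-sided permutation test, p = 0.007937, the smallest that 5 against 5 allows, 0.01587 adjusted over 12 ratios and comparisons). Between atria and ventricles it differed by -1.91 in room air and by -2.61 after hyperoxia, each with the same exact p. In the ventricle hyperoxia gave a difference of -0.08 (exact permutation adjusted p = 0.528). Rpl3 itself rose by 0.67 (SE 0.16) in the hyperoxic atrium, so the change in the ratio is not that of Rpl3l alone.

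Rps27l, a paralogue of Rps27 known as a p53 target, rose more than any of the 76 subunit genes in the hyperoxic atrium in all 3 fits. It had 62.8, 49.2, 46.1, 59.9 and 47.1 CPM in room-air atria and 102.1, 201.9, 120.1, 213.2 and 102.1 CPM in hyperoxic atria. The lowest hyperoxic value was well above the highest room-air value, and the log2 difference was 1.48 (SE 0.21, adjusted p 6.75e-06), 1.03 (SE 0.11, adjusted p 6.93e-08) without the tilted libraries and 0.86 (SE 0.08, adjusted p 3.18e-09) with the covariate. Its share of the summed Rps27l and Rps27 counts was 19.1% ± 0.846 (SD, n = 5) in room-air and 27.6% ± 1.99 in hyperoxic atria, against 24.5% ± 1.71 and 25.8% ± 1.18 in the ventricles. The log2 ratio rose by 0.70 in the atrium (exact permutation p = 0.007937, adjusted 0.01587), and the ventricular difference was 0.11 (exact permutation adjusted p = 0.210). In room air the atrium differed from the ventricle by -0.46 (exact permutation p = 0.007937, adjusted 0.01587), and after hyperoxia the chambers differed by 0.13 (exact permutation adjusted p = 0.169). The difference between the chambers' responses was tested for the gene itself and not for the ratio: it was 1.97 on the log2 scale with all libraries (SE 0.29).

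Rpl22l1, the paralogue of Rpl22, moved the other way relative to its partner. It had 53.7, 43.0, 41.3, 56.2 and 42.8 CPM in room-air atria and 38.7, 72.5, 40.7, 84.0 and 41.1 CPM in hyperoxic atria, where the 3 untilted libraries lay below and the tilted ones above all room-air values. Its share of the pair was 20.8% ± 0.854 (SD, n = 5) in room-air atria, 15.3% ± 1.5 in hyperoxic atria, 18.6% ± 1.18 in room-air ventricles and 15.7% ± 2.18 in hyperoxic ventricles. The log2 ratio differed after hyperoxia by -0.54 in the atrium (exact permutation p = 0.007937, adjusted 0.01587) and the ventricular difference was -0.30 (exact permutation p = 0.03968, adjusted 0.0595). For the gene itself the atrial difference was 0.22 (SE 0.20, adjusted p 0.372) with all libraries and -0.37 (SE 0.09, adjusted p 0.00211) with the covariate, and in the ventricle the gene fell by 0.70 (SE 0.20, adjusted p 0.0292).

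**Figure D5:**
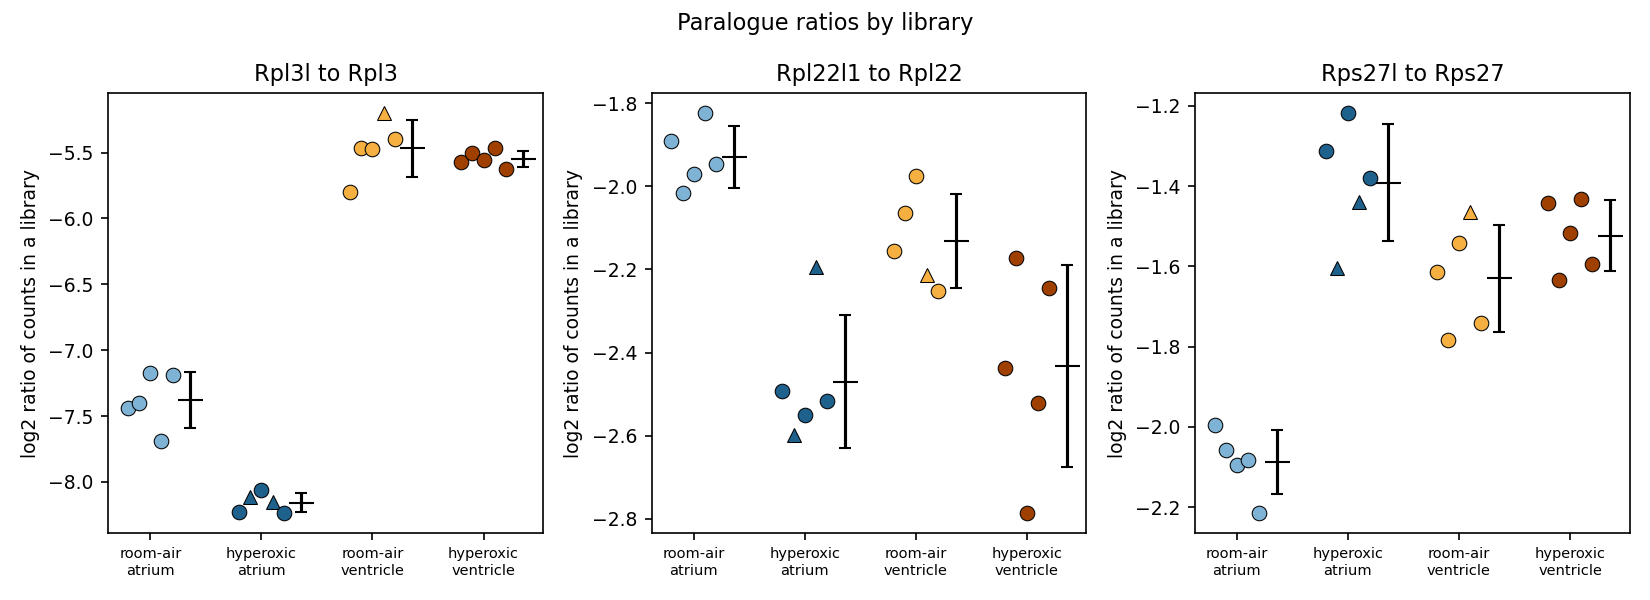
Log2 ratio of paralogue to partner counts in each library of the 4 groups, with the mean and SD of 5 libraries and triangles for the 3 tilted libraries. From room-air to hyperoxic atria, the mean went from -7.38 to -8.16 for Rpl3l to Rpl3, from -1.93 to -2.47 for Rpl22l1 to Rpl22 and from -2.09 to -1.39 for Rps27l to Rps27, without overlap.

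Rpl7l1, a paralogue of Rpl7 with a role in ribosome assembly and a transcript of 1958 bases, had 59.2, 53.4, 53.6, 59.2 and 48.4 CPM in room-air atria and 82.7, 92.6, 87.1, 95.8 and 79.2 CPM in hyperoxic atria. The groups lay far apart relative to their spread, and the tilted libraries were only slightly above the rest. The rise was 0.68 (SE 0.08, adjusted p 1.02e-06) with all libraries, 0.60 (SE 0.07, adjusted p 5.8e-07) without the tilted ones and 0.54 (SE 0.07, adjusted p 6.83e-07) with the covariate. In the ventricle it was 0.06 (SE 0.08, adjusted p 0.626). Rpl39l, a testis-enriched paralogue, was near the limit of detection at 0 to 21 counts per library.

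Among the retrocopies Rps4l, a transcribed pseudogene, was lower in the atrium than in the ventricle, with 66.5, 60.4, 67.3, 76.6 and 58.5 CPM in room-air atria and 104, 128, 117, 157 and 120 CPM in room-air ventricles. In hyperoxic atria it had 40.2, 67.2, 39.0, 69.8 and 30.2 CPM, and the untilted libraries lay below every room-air atrium. The hyperoxic difference in the atrium was -0.42 (SE 0.19, adjusted p 0.0714) with all libraries, -0.85 (adjusted p 2e-05) without the tilted ones and -0.93 (adjusted p 9.65e-07) with the covariate. Rpl6l, Rps3a2 and Rps3a3 had at most 104 counts in any library. Rps3a2 and Rpl6l were called higher in the hyperoxic atrium with all libraries, at 1.54 (SE 0.42) and 1.24 (SE 0.41), and not without the tilted ones.

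Genes around ribosomal protein synthesis were counted from lists. The shares of all genes to read them against in the hyperoxic atrium are again 19.7% higher and 24.2% lower with all libraries, 17.1% and 21.9% without the tilted ones and 17.5% and 22.4% with the covariate. Of 6 ribosomal proteins outside the naming rule, 3 rose in the hyperoxic atrium, 2 without the tilted libraries, and 2 rose and 1 fell with the covariate: Rpsa, with 781.7 ± 91.8 CPM in room-air and 1606 ± 664 CPM in hyperoxic atria (SD, n = 5), rose by 1.04 (SE 0.22, adjusted p 0.000647), Rack1 by 0.76 (SE 0.13) and Fau by 0.76 (SE 0.24). A list of 20 TOP messenger RNAs held mainly translation factors, and Rack1 again. Of these, 14 rose in the atrium with all libraries and 14 without the tilted ones, with medians of 0.43 and 0.32. With the covariate 13 rose and 1 fell, with a median of 0.28. Npm1, a nucleolar chaperone of ribosome assembly, rose by 0.85 (SE 0.13) and Btf3, a nascent-chain binding factor, by 0.80 (SE 0.12). In the ventricle, where 5.64% of all genes were called higher and 5.28% lower, 2 of the 20 rose and 0 fell. With the covariate 1 rose and 0 fell (6.43% and 6.09% of all genes). Leaving out the tilted libraries gave 3 and 4, beside 9.13% of all genes called lower. The share called higher in that ventricular fit is not given. The 2 that rose with all libraries were Eif4a2 at 0.35 (SE 0.09) and Pabpc4 at 0.26 (SE 0.08).

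Ribosome biogenesis genes, which act in making and processing ribosomal RNA and assembling subunits, have long transcripts, with a median of 2804 bases in the list of 43. In the hyperoxic atrium 40 of 43 rose and 0 fell with all libraries, with a median of 0.97, and 42 rose without the tilted libraries or with the covariate, with medians of 0.79 and 0.77. Rrp12, which takes part in ribosome assembly and export, had 10.03 ± 0.523 CPM in room-air and 91.8 ± 13.7 CPM in hyperoxic atria (SD, n = 5), a log2 difference of 3.19 (SE 0.18, adjusted p 2.24e-11). Tsr1, a small-subunit assembly factor, went from 22.6 ± 1.92 to 58.9 ± 3.07 CPM, and the helicase Ddx21 from 49.6 ± 3.66 to 101 ± 7.95 CPM. In the ventricle 9 of the 43 rose and 0 fell (5.64% and 5.28% of all genes). Among those that rose were Tsr1 at 0.51 (SE 0.09, adjusted p 0.00166) and Ddx21 at 0.46 (SE 0.10, adjusted p 0.00603). With the covariate 17 rose (6.43%), and 14 rose without the tilted libraries, where the share of all genes called higher is not given.

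Of 19 regulators, 8 rose and 1 fell in the hyperoxic atrium, 9 and 1 without the tilted libraries and 8 and 1 with the covariate. Sesn2, a leucine sensor and stress-induced inhibitor of mTORC1, went from 6.83 ± 0.645 to 39.0 ± 4.49 CPM in the atrium (log2 2.51, SE 0.11, adjusted p 3.11e-12) and from 6.50 ± 0.959 to 10.2 ± 0.961 CPM in the ventricle (log2 0.65, SE 0.11, adjusted p 0.00171). Mdm2, the p53 ligase that Rpl5 and Rpl11 bind, rose by 0.94 (SE 0.08, adjusted p 1.24e-08) in the atrium, and in the ventricle the value was 0.19 (SE 0.08, adjusted p 0.122). Larp4 rose in both, by 0.76 (SE 0.09) and 0.50 (SE 0.09). The mitochondrial ribosomal proteins, which belong to the separate ribosome of mitochondria, gave 66 higher of 77 in the hyperoxic atrium with all libraries, 42 without the tilted ones, and 37 higher and 3 lower with the covariate. In room air 75 of them were lower in the atrium than in the ventricle, 75 without the tilted libraries and 69 with the covariate (26.3%, 27.1% and 24.4% of all genes), with medians of -0.82, -0.72 and -0.46. Mrps18b, with 10.04 ± 1.12 CPM in room-air and 33.5 ± 4.83 CPM in hyperoxic atria (SD, n = 5), rose by 1.74 (SE 0.13) and Mrps2 by 0.67 (SE 0.07), and in the ventricle Mrpl54 fell by 0.84 (SE 0.20, adjusted p 0.0139) and Mrpl3 rose by 0.33 (SE 0.10, adjusted p 0.0347).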

How the data were processed

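The authors deposited whole-number read counts per gene for each of 20 libraries, made with a stranded mRNA kit per the labels' protocols. Tools named in the submitters' processing notes were fastp 0.20.1, STAR 2.7.6a, Subread 2.0.1 with featureCounts, and Salmon 1.3.0, with build GRCm38.p6; the annotation, strand setting and treatment of reads with several matches are not given in the sources used here. The labels and the design text name different RNA extraction kits.

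Counts were tested with edgeR 4.0.16 (R 4.3.3, limma 3.58.1) by the quasi-likelihood F-test, with TMM scaling, filterByExpr and 1 coefficient per group over all 20 libraries. Of 55367 genes listed, 16598 were tested, with Benjamini-Hochberg adjustment over them; the scripts were tested on simulated data. CPM values use TMM-scaled library sizes and carry the SD of 5 libraries. SEs of log2 differences were derived from the F statistics. Transcript lengths are medians over GENCODE M21 basic transcripts, and the length slope used genes at 5 CPM or more. Promoters came from RefSeq. Paralogue ratios were compared by exact permutation tests.

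Alternatives were RLE scaling, no filter, DESeq2 1.42.0, only the compared libraries, the replicate number as a block, the slope or the Y-linked share as covariate, leaving out the 3 tilted libraries and leaving out each library; the slope with no tilted library was added after seeing the data. The members, lists and tests were chosen with earlier results of these data known. Named genes are members with a paralogue, members with a well-known role, the members with the largest and smallest differences, and the 2 members of each other list with the smallest p in each oxygen comparison; 1 gene that the rule selects is not reported here. No 2 libraries of a group agreed within sampling noise. In the main fit, p-values set a difference against the spread between mice within groups, estimated over the 4 groups together. Permutation p-values use only the 2 groups compared.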

Additional observations from a re-analysis of the deposited data

Results flagged for a closer look

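Sample values were screened within groups of 5 libraries with Dixon's test, in which chance marks about 1 in 20 groups. Of 152 groups screened, 11 had a library far from the rest. Room-air ventricle 4, which is tilted towards short transcripts, stood above its group for Rpl3l (23.3 CPM), Rpl5 (543.6 CPM), Rpl7l1 (75.7 CPM), Rps12 (1474 CPM), Rps27a (762.1 CPM) and Rps27l (180.9 CPM). Rpl24 stood apart at 1.09 CPM in hyperoxic atrium 4 and at 0.781 CPM in hyperoxic ventricle 4. Rpl39l had 0 CPM in hyperoxic ventricle 2, and Rps4l was low in hyperoxic ventricle 4 at 56.1 CPM. The log2 ratio of Rpl22l1 to Rpl22 was high in hyperoxic atrium 4, at -2.19.

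The response to hyperoxia differed between the chambers, by edgeR's test of the difference itself, for 79 members with all libraries. All were higher in the atrium (17% of all genes), as were 74 without the tilted libraries (11%). With the slope as a covariate 26 were higher and 1 lower (6.65% and 9.21%), and with no tilted library as well 5 were higher (2.91%). The values below are from all libraries. Those of Rpl22l1 and Rps4x turned negative with the covariate. For the named genes this difference, atrium minus ventricle on the log2 scale, was 0.93 for Rpl3, 1.17 for Rpl22, 0.92 for Rpl22l1, 1.41 for Rps27, 1.97 for Rps27l and 1.56 for Rpl39. It was 0.93 for Rpl10, 0.80 for Rpl7, 0.61 for Rpl7l1 and 0.85 for Rps4x. It was 0.72 for Rplp0, 1.49 for Rplp1 and 1.65 for Rplp2 of the stalk. It was 1.09 for Rps6, 0.91 for Rpl5, 1.36 for Rpl11, 1.61 for Rps19 and 1.303 for Rps27a. Among the largest and smallest it was 0.71 for Rpl15, 0.77 for Rpl10a, 1.73 for Rps21, 1.99 for Rpl36, 2.07 for Rpl38 and 2.14 for Rps3a2.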

How the results depend on the processing

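With the slope as a covariate, 46 members were higher and 3 lower in the hyperoxic atrium, 1 was higher and 6 lower in the ventricle, 26 responded more and 1 less in the atrium, 49 were lower in room-air atria than ventricles, and 11 were higher and 4 lower in hyperoxic atria. Without the tilted libraries, 2 were lower in the hyperoxic atrium, 59 lower in the ventricle and 13 higher in hyperoxic atria than ventricles. With both, 49 members were higher (16.6% of all genes) and 3 lower (20.9%) in the atrium, and 0 lower in the ventricle (1.18%). In the same fit 5 responded more in the atrium (2.91%) and 26 were lower in room-air atria than ventricles (16.1%). Between hyperoxic chambers 15 were higher and 4 lower in the atrium (26.1% and 26.5%). Ventricular members called lower numbered 1 with no filter, 39 with DESeq2, 58 with only the compared libraries and 0 with the Y-linked covariate. Members higher in hyperoxic atria than ventricles numbered 43 with no filter and 40 with only the compared libraries. Except with the Y-linked covariate, shares over all genes are not given for these fits. Nor are they given for the replicate block or for leaving out 1 library. Such counts show how far the number of members called moved, not how it stood to all genes. The difference between responses uses all 4 groups, so it has no fit on fewer libraries.

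The replicate number was not taken to pair the samples, since not every same-numbered pair correlated above 0.1, and whether a number marks 1 mouse is not settled by this. Deviations of same-numbered atria and ventricles correlated at 0.02 to 0.32, and those of same-numbered oxygen groups at -0.15 to 0.32. Of 18 libraries, 9 correlated best with their own number among the 5 libraries of the other chamber. Y-linked shares of same-numbered hyperoxic atria and ventricles were both high for number 2 and both low for numbers 1, 4 and 5. These are hints from the data and not the design. With the replicate block, 78 members were higher and 1 lower in the atrium, 7 lower in the ventricle, 78 responded more in the atrium, 76 were lower in room-air atria and 73 higher in hyperoxic atria.

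Leaving out 1 library gave 71 to 78 higher and 0 to 1 lower in the atrium, 0 to 36 lower in the ventricle, 78 to 79 responding more in the atrium, 59 to 79 lower in room-air atria, and 31 to 76 higher in hyperoxic atria. Log2 ratios ranged from -0.86 to -0.73, -0.16 to -0.01, -1.99 to -1.83 and -2.63 to -2.59 for Rpl3l to Rpl3 (atrium, ventricle, chambers in room air and in hyperoxia), -0.61 to -0.51, -0.37 to -0.21, 0.17 to 0.24 and -0.13 to 0.03 for Rpl22l1 to Rpl22, and 0.65 to 0.75, 0.07 to 0.15, -0.50 to -0.42 and 0.0895 to 0.19 for Rps27l to Rps27. Without the tilted libraries the called ratios kept their direction, at -0.80, -1.84 and -2.63 for Rpl3l, -0.59 and 0.18 for Rpl22l1, and 0.78 and -0.42 for Rps27l, with adjusted exact permutation p = 0.0536, since fewer libraries allow only larger p-values.

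Apart from leaving out single libraries, 73 differences of named genes reported here changed sign in an alternative; 57 of them were called neither with all libraries nor in the alternative. The 16 called in at least one of these fits follow, with values from the slope as a covariate, then from the covariate with no tilted library: in the atrium Rpl22l1 (-0.37, -0.37) and Rplp2 (-0.084, -0.014); in the ventricle Rpl5 (0.27, and 0.22 not called); in the difference between responses Rpl22l1 (-0.082, -0.16), Rps4x (-0.019 with the covariate) and Rps4l (-0.67, and -0.60 not called); between room-air chambers Rpl3 (0.017 with both); between hyperoxic chambers Rpl39 (-0.11, -0.10, and -0.036 without the tilted libraries alone), Rplp2 (-0.27, -0.23) and Rps27a (-0.022 with the covariate). The cause was not tested. The slope partly follows the groups, so the covariate can take up a true difference, and low counts limit Rpl24, Rps10, Rpl39l and the retrocopies.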
